A study of Homo sapiens with 18 samples.

Results

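A set of 10 cytokine genes, 1 of them a receptor and 1 an antagonist, were followed across the 6 cell populations of the study: *IL1A*, *IL1B*, *IL1RN*, *IL6*, *IL6R*, *IL11*, *IL18*, *IL32*, *IL33* and *LIF*. They were taken by symbol, and all 10 were found among the 40266 gene rows of the table. All 10 also passed the filter on low values that left 16093 genes for testing. The populations come from 2 human pancreatic ductal adenocarcinoma (PDAC) cell lines. Panc1, from a primary tumor, stands for mesenchymal-like PDAC cells, and Panc89, from a lymph node metastasis, stands for epithelial PDAC cells. From each line the study sequenced the parental cells, Holoclone cells (colony shape of cancer stem cells) and Paraclone cells (colony shape of non-stem cells), with 3 replicates per group and 18 libraries in all. Cells were grown in the same serum-containing medium and received no treatment. Each Holoclone or Paraclone population was a single defined clone, and its replicates were 3 passages of it. A difference between clone types therefore cannot be told apart from a difference between single clones.

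Interleukins are secreted signals by which cells steer inflammation. IL-1α, IL-1β, IL-18 and IL-33 are IL-1 family agonists that act through receptors coupled to MYD88 and NF-κB. IL-1β and IL-18 are made as precursors that caspase-1 cuts, IL-1α and IL-33 also act as alarm signals when cells die, and the IL-1 receptor antagonist from *IL1RN* occupies the IL-1 receptor without signalling. IL-6, IL-11 and LIF belong to the IL-6 family, whose receptors share the gp130 chain (*IL6ST*) and signal through JAK kinases and STAT3, with *IL6R* as the chain that binds IL-6. IL-32 is a pro-inflammatory cytokine outside these families. In pancreatic tumors IL-1, IL-6 and LIF are known as signals between cancer cells and fibroblasts.

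The genes lie on 8 chromosomes. On the GRCh38 build (GENCODE 44 annotation) *IL1A* spans chr2:112773925-112784493, *IL1B* chr2:112829751-112836816 and *IL1RN* chr2:113099315-113134016, all inside the IL1 cluster. *IL6* spans chr7:22725884-22732002, *IL6R* chr1:154405193-154469450, *IL11* chr19:55364382-55370463 and *IL18* chr11:112143253-112164096. *IL32* spans chr16:3065297-3082192, *IL33* chr9:6215786-6257983 and *LIF* chr22:30240453-30246759. Promoter windows of RefSeq (GRCh38.p14), from 250 bases before to 50 bases after a start, were at hand for 8 of the 10 genes and not for *IL18* and *LIF*. The stretches below are the bases just before a start of *IL1A*, *IL6* and *IL11*, 5′ to 3′ on the gene's strand. They are shown because *IL1A* and *IL6* differed between the parental cells of the lines and *IL11* changed in opposite directions between the clones of the lines. Capitals mark motif matches.
IL1A, chr2:112784494-112784613, minus strand: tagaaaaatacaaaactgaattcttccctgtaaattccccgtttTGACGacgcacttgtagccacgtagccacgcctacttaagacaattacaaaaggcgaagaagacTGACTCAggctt
IL6, chr7:22727020-22727199, plus strand: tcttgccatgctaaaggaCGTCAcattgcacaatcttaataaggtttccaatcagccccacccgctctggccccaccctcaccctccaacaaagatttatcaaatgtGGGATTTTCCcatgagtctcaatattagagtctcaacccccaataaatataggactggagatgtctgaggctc
IL11, chr19:55370464-55370583, minus strand: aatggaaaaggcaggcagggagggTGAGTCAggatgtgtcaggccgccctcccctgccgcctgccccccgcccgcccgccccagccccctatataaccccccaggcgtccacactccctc
In the *IL1A* stretch the capitals are TGACG, the core of a cyclic AMP response element, and an AP-1 element matching TGANTCA. The *IL6* stretch, which lies inside the longer GENCODE span of the gene, holds the reverse complement of TGACG and a match to the κB consensus, and the *IL11* stretch holds an AP-1 match. The 8 genes had 13 windows, since a gene can have several starts, and windows of 1 gene can overlap. Searched on both strands of the whole windows, TGANTCA was found in 5 of the 13, from 4 genes (*IL1A*, *IL1RN*, *IL6R* and *IL11*). Of 35116 windows of all genes, 7.71% held it. TGACG was found in 4 of the 13 windows (*IL1A*, *IL6* and *IL32*) against 24.6% of all windows. The κB consensus was found in 2 (*IL6* and *IL32*) against 5.91%. The STAT motif TTCNNNGAA was found in 2 (*IL1B* and *IL33*) against 7.66%, and TATAAA in 2 (*IL1A* and *IL1RN*) against 11.5%. A match describes letters only, since binding was not measured.

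Levels are given in TPM, the length-corrected share of a library's transcripts that belongs to a gene. Differences are between group means of log2(TPM + 1), given ± the standard error (SE) of the fit with 3 libraries in each group, and the scale understates the change of genes near 0 TPM. A gene was called when its p-value from limma, adjusted over all 16093 genes, was under 0.05. As the replicates were passages, p-values measure only the spread between these samples, which may be technical. In each library 12932 to 14199 genes reached 1 TPM, and the number of reads behind a value is unknown. Replicates correlated at 0.954 to 0.992 (Pearson's r over the tested genes). The lowest values belonged to Panc89 Paraclone replicate 2, at 0.954 and 0.969 with the other libraries of its group, which correlated at 0.986 with each other. Where a call or value of a named gene changed clearly without this library, that value is given too. As for the labels, *CDH1* averaged 75.3 TPM in parental Panc89 against 1.35 TPM in parental Panc1, and *VIM*, the mesenchymal intermediate filament, averaged 3780 TPM in parental Panc1 against 0.0653 TPM in parental Panc89. All 6 epithelial markers examined (*EPCAM*, *CDH1*, *KRT7*, *KRT8*, *KRT18*, *KRT19*) reached 1 TPM in every group. By the means of parental Panc89 and parental Panc1, *EPCAM* (185 and 11.2 TPM), *KRT7* (1690 and 11.9 TPM) and *KRT19* (1310 and 663 TPM) were higher in Panc89. *KRT8* (762 and 1410 TPM) and *KRT18* (1100 and 1460 TPM) were lower. Of the other mesenchymal markers, *ZEB1* (0.0519 and 17.2 TPM) and *CDH2* (3.10 and 4.67 TPM) were lower in Panc89, but *FN1* (3.60 and 0.213 TPM) was higher. Of a list of 10 leukocyte markers, *PTPRC* and *CD3E* did not reach 1 TPM in any group, while *CD68* reached it in all 6, *ITGAM* in the Panc1 groups, *FCER1G* in parental Panc1 and *CD14* in parental Panc89 and the Panc89 Paraclone. The list summed to 91.1 to 98.9 TPM in parental Panc1, 54.6 to 71.9 TPM in the Panc1 Holoclone and 126 to 153 TPM in the Panc1 Paraclone. Nearly all of these sums came from *CD68*, which averaged 91.1, 60.2 and 134 TPM in this order.

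**Figure D1:**
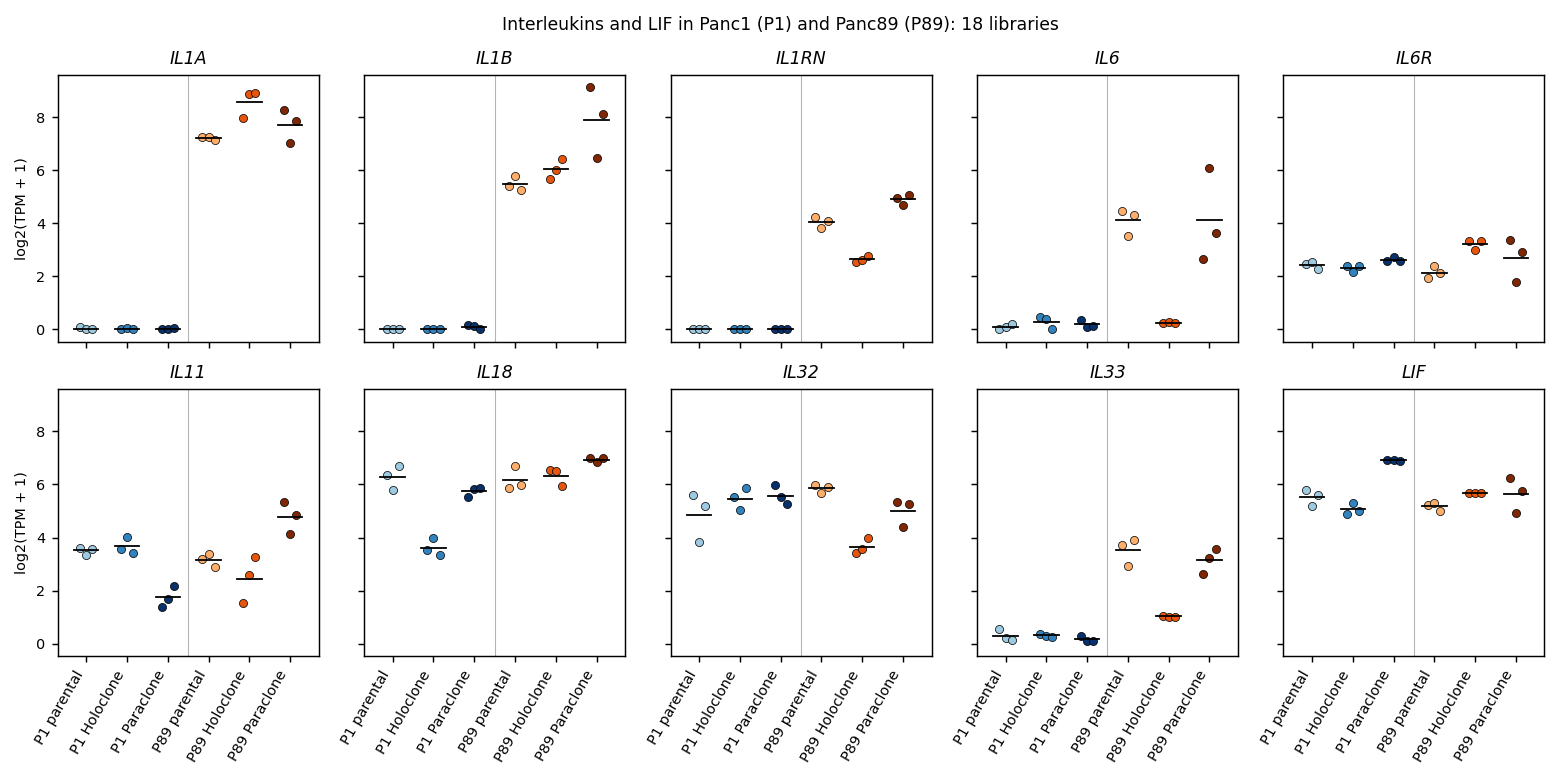
Level of each gene in log2(TPM + 1) (vertical axis) in the 18 libraries by group (horizontal axis), with points for libraries and a bar for the group mean. The 9 Panc1 libraries lie near 0 for *IL1A*, *IL1B*, *IL1RN*, *IL6* and *IL33*, while the other 5 genes were detected in all 18 libraries.

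The study asked how an epithelial and a mesenchymal-like PDAC line differ. Between the parental lines, 6 of the 10 genes were called higher in Panc89 (*IL1A*, *IL1B*, *IL1RN*, *IL6*, *IL32* and *IL33*) and none lower in limma's test. All of these but *IL32* were under 1 TPM in every Panc1 library and passed the filter only through Panc89. They could therefore be called only as higher in Panc89, which in part fixes this count and the median over the 10 genes. Among all genes tested, 66% were called in this comparison, 27.5% higher and 38.5% lower. The median fitted difference was 2.11 over the 10 genes and -0.18 over all genes. After rescaling the libraries by the median of ratios, the share of higher genes among the calls moved from 41.6% to 52.0% and the median over all genes from -0.18 to 0.02, and the same counts of 6 and 0 were obtained for the 10 genes. The summed level of the 10 genes was 199, 116 and 199 TPM in parental Panc1 and 414, 443 and 389 TPM in parental Panc89.

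*IL1A*, the gene of IL-1α, gave the largest difference between the parental lines among the 10. Its level in parental Panc89 was 154, 153 and 141 TPM. In the Panc89 Holoclone it was 249, 466 and 483 TPM, and in the Panc89 Paraclone 305, 131 and 230 TPM. All 9 Panc1 libraries lay at 0 to 0.0683 TPM, so that no Panc1 library came near a Panc89 library. The parental lines differed by 7.20 ± 0.26, adjusted p = 1.43e-12. Within Panc89 the group means were ordered Holoclone (399 TPM), Paraclone (222 TPM) and parental (149 TPM), and the libraries of neighbouring groups overlapped.

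The gene of IL-1β, *IL1B*, was listed at 0 in the 3 parental Panc1 libraries and reached at most 0.12 TPM in the Panc1 clones. Parental Panc89 held 41.3, 54.7 and 36.9 TPM, and the Panc89 Holoclone 49.5, 64.2 and 86.2 TPM. The Panc89 Paraclone held 569, 86.8 and 275 TPM, the highest levels of this gene but also the widest spread of the 3 groups. Its lowest library, replicate 2, lay just above the highest Holoclone library. The difference between the parental lines was called (adjusted p = 2.09e-08), and no fold is given against a group listed at 0.

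*IL1RN*, the antagonist gene, was listed at 0 in all 9 Panc1 libraries. In parental Panc89 it stood at 18, 13.0 and 15.9 TPM, in the Holoclone at 4.77, 5.22 and 5.87 TPM and in the Paraclone at 30.2, 25.0 and 32.2 TPM. The 3 Panc89 groups did not overlap, with the Paraclone highest and the Holoclone lowest. The adjusted p of the difference between the parental lines was 4.65e-13.

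The same 3 genes are part of a run of 9 IL-1 family genes within 360 kb of chromosome 2. Of the 6 genes between *IL1B* and *IL1RN*, 5 stayed under 1 TPM in every library. The exception, named after its values were seen, was *IL37*, an anti-inflammatory member of the family, whose level in the Panc89 Paraclone was 3.11, 1.03 and 1.49 TPM. Expression in the cluster was thus found at its ends and, apart from *IL37*, not between them.

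**Figure D2:**
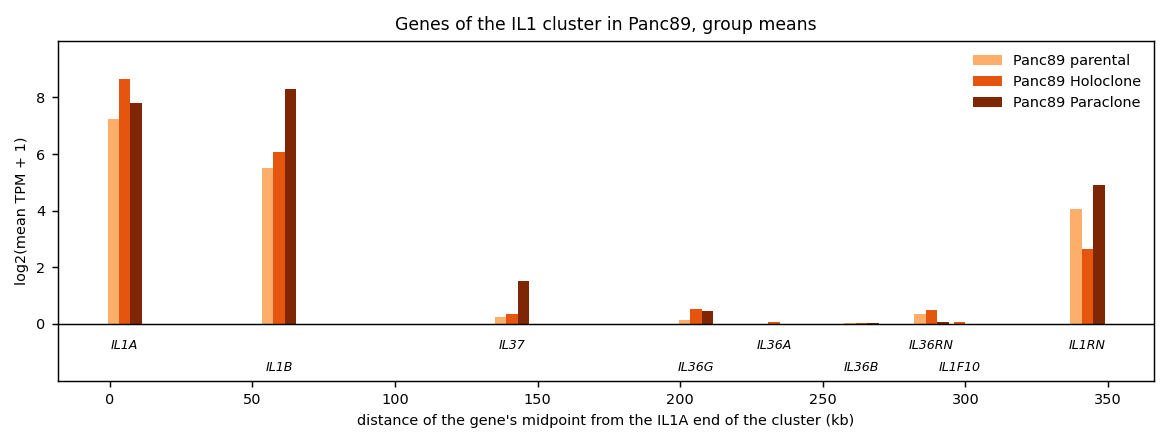
Group means of the 9 IL1 cluster genes in the Panc89 populations as log2(mean TPM + 1) (vertical axis) against the distance of each gene's midpoint from the *IL1A* end in kb (horizontal axis). *IL1A*, *IL1B* and *IL1RN* carry the signal, with *IL1A* highest in the Holoclone and the other pair highest in the Paraclone.

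*IL33*, an alarm cytokine stored in the nucleus, stayed at 0.0721 to 0.47 TPM in the Panc1 libraries. Parental Panc89 held 12.3, 6.55 and 14.1 TPM, the Holoclone 1.07, 1.03 and 1.02 TPM and the Paraclone 5.15, 8.45 and 10.9 TPM. The Holoclone libraries lay below all other Panc89 libraries and above all Panc1 libraries. Between the parental lines the difference was 3.23 ± 0.24, adjusted p = 1.15e-08.

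*IL6* was also lowest in the Holoclone among the Panc89 groups. It was 0 to 0.399 TPM in Panc1 and 21.4, 10.4 and 18.9 TPM in parental Panc89. In the Panc89 Holoclone it was 0.172, 0.206 and 0.174 TPM, which overlapped the Panc1 libraries. The Panc89 Paraclone held 5.26, 66.5 and 11.5 TPM, where the highest value came from replicate 2, the library that correlated least with its group. The parental lines differed by 4.01 ± 0.56, adjusted p = 1.2e-05. The overlapping opposite-strand gene *STEAP1B* was highest in parental Panc1 (8.10 to 10.6 TPM) and at most 0.231 TPM in the Panc89 libraries, so its level did not move with *IL6*.

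*IL32* was present in both lines. Its level was 47.1, 13.1 and 35.1 TPM in parental Panc1 and 62.3, 50.8 and 58.7 TPM in parental Panc89, where every library lay above every parental Panc1 library. The difference of 1.00 ± 0.37, adjusted p = 0.0275, was the smallest of the 6 called. It was 0.48 with an adjusted p of 0.181 without Panc1 parental replicate 2, and the call was also lost without Panc89 parental replicate 1 or 3, with the replicate block (0.69 with an adjusted p of 0.152), with no filter on low values (adjusted p = 0.0555) and with only the compared groups (adjusted p = 0.07).

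The other 4 genes did not pass the test between the parental lines. *IL18* was 80.8, 53.7 and 102 TPM in parental Panc1 and 56.7, 103 and 62.2 TPM in parental Panc89 (difference -0.09, 95% confidence interval -0.63 to 0.45, adjusted p = 0.765). *LIF*, named for its action on leukemia cells, was 54.5, 35.1 and 47.4 TPM and 36.7, 38.0 and 31.3 TPM in the same groups (difference -0.34, 95% confidence interval -0.86 to 0.17, adjusted p = 0.228). *IL11* was 11.2, 9.20 and 11 TPM and 8.16, 9.5 and 6.43 TPM (difference -0.36, 95% confidence interval -1.15 to 0.43, adjusted p = 0.412). *IL6R* was 4.47, 4.85 and 3.88 TPM and 2.80, 4.19 and 3.32 TPM (difference -0.29, 95% confidence interval -0.88 to 0.30, adjusted p = 0.368). All 4 were above 2 TPM in every parental library, and the intervals give the size of difference that these libraries leave possible.

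The clone comparison within Panc1 gave a short list. Between the Panc1 Holoclone and the Panc1 Paraclone, *IL11* was called higher in the Holoclone and *IL18* and *LIF* lower, which is 3 of the 10 genes. Over all genes, 37.3% were called, 27.4% higher and 9.97% lower, with a median difference of 0.19 against -0.04 for the 10 genes. After median-of-ratios scaling the share of higher genes among all calls fell from 73.3% to 48.3% and the median over all genes was 0, while the 10 genes again gave 1 higher and 2 lower.

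*IL11*, a gp130 cytokine, was 11, 15.1 and 9.65 TPM in the Panc1 Holoclone and 1.60, 2.20 and 3.51 TPM in the Panc1 Paraclone. The groups did not overlap and differed by 1.92 ± 0.37, adjusted p = 0.000772. Compared with parental Panc1, the Paraclone was lower (-1.77 ± 0.37, adjusted p = 0.00228) and the Holoclone was not called (0.15, adjusted p = 0.901). *IL18* was 10.6, 14.8 and 9.09 TPM in the Holoclone and 45.5, 56.3 and 58.1 TPM in the Paraclone, a difference of -2.14 ± 0.25, adjusted p = 9.73e-06. Here the Holoclone was the group that departed from parental Panc1 (-2.65 ± 0.25, adjusted p = 5.42e-06). It held the lowest *IL18* levels of the 18 libraries.

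*LIF* was 28.8, 38.5 and 30.6 TPM in the Panc1 Holoclone and 119, 120 and 118 TPM in the Panc1 Paraclone. The Paraclone libraries agreed closely and were the highest *LIF* values of the study. The difference was -1.85 ± 0.24, adjusted p = 2.57e-05, and the Paraclone also exceeded parental Panc1 (1.39 ± 0.24, adjusted p = 0.000578). *IL32* and *IL6R* were not called between the Panc1 clones. *IL32* was 44.6, 31.5 and 57.1 TPM in the Holoclone and 61.6, 44.6 and 37.5 TPM in the Paraclone (difference -0.12, 95% confidence interval -0.91 to 0.68, adjusted p = 0.864). *IL6R* was 4.26, 3.48 and 4.25 TPM and 4.91, 5.60 and 4.96 TPM (difference -0.30, 95% confidence interval -0.89 to 0.28, adjusted p = 0.429). The remaining 5 genes were under 1 TPM in every Panc1 library, and no difference is given for them. Against parental Panc1, 1 of the 10 genes was called in the Holoclone (lower), where 10.9% of all genes were called, 5.06% lower. In the Paraclone 1 was called higher and 1 lower, where 28.6% of all genes were called, 7.31% higher and 21.3% lower. The last of these splits moved from 25.6% to 51.9% higher among the calls after median-of-ratios scaling.

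The same comparison was made within Panc89. *IL1B*, *IL1RN*, *IL6*, *IL11*, *IL32* and *IL33* were called lower in the Panc89 Holoclone than in the Panc89 Paraclone, and *IL1A* was called higher, which is 7 of the 10 genes. This count cannot be set against that of Panc1, where 5 of these 7 were under 1 TPM in every library. Among all genes 35.7% were called, 22.4% higher and 13.3% lower. The median difference was -1.61 for the 10 genes and 0.09 for all genes. Without Panc89 Paraclone replicate 2 the same 6 genes were called lower and none higher. After median-of-ratios scaling 7 were called lower, with *IL18* added, and none higher, while the share of higher genes among all calls moved from 62.8% to 49.9%.

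**Figure D3:**
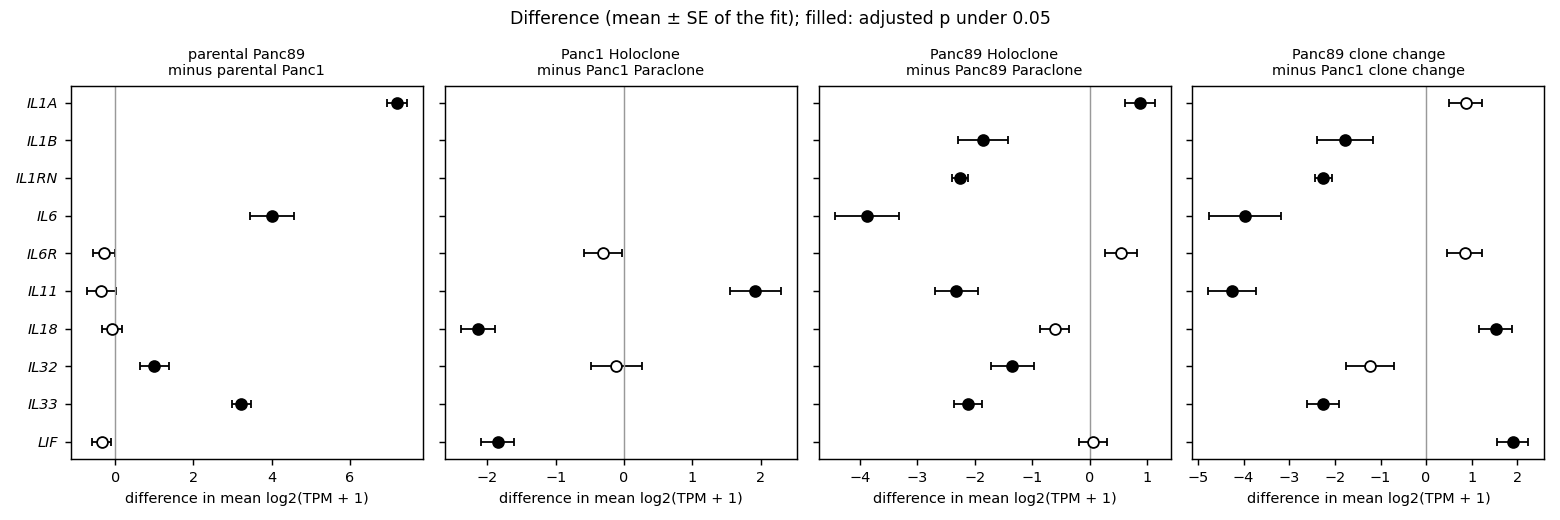
Difference in mean log2(TPM + 1) (horizontal axis) for the 10 genes in 4 comparisons, with bars for ± 1 SE of the fit and filled points for an adjusted p under 0.05. No point is drawn where all libraries were under 1 TPM or where a group was listed at 0. *IL11* lies at 1.92 in Panc1 and -2.32 in Panc89.

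*IL6* fell the furthest of the 10. With the levels given above, the Panc89 Holoclone lay below the Paraclone by -3.88 ± 0.56, adjusted p = 6.6e-05, and without Paraclone replicate 2 the value was -2.90 with an adjusted p of 2.43e-06. The Holoclone also lay below parental Panc89 (-3.86 ± 0.56, adjusted p = 0.000111), whereas the Paraclone did not differ from parental Panc89 by the test (0.02, 95% confidence interval -1.18 to 1.21, adjusted p = 0.998). Without replicate 2 the last value turned to -0.96 with an adjusted p of 0.0236. *IL33* was lower in the Holoclone than in the Paraclone (-2.11 ± 0.24, adjusted p = 7.68e-06) and than in parental Panc89 (-2.49 ± 0.24, adjusted p = 2.49e-06). The sum of the endothelial markers was ordered like the *IL33* means, and so were the means of *PECAM1* and *CDH5*. *VWF* was highest in the Holoclone (mean 0.235 TPM) and *CLDN5* in the Paraclone (mean 2.19 TPM). The summed level of *PECAM1*, *CDH5*, *VWF* and *CLDN5* was 55.7 to 69.4 TPM in parental Panc89, 1.41 to 2.35 TPM in the Holoclone and 5.33 to 10.8 TPM in the Paraclone. Of these, *PECAM1* and *CDH5* reached 1 TPM in parental cells, *PECAM1* in the Holoclone and *PECAM1*, *CDH5* and *CLDN5* in the Paraclone, and none was at 0 in all libraries of a Panc89 group. The monocyte marker *CD14* averaged 3.97, 0.191 and 3.20 TPM in the same order, within the leukocyte list, which summed to 13.7 to 19.1, 19.4 to 26.3 and 36.4 to 66.8 TPM. *CD68* of that list averaged 11.1, 21.7 and 52.5 TPM in this order and was thus lowest in parental cells. The part of these markers in the *IL6* and *IL33* results was not tested. In bulk RNA, fewer expressing cells and less RNA per cell cannot be told apart.

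The IL-1 agonists moved apart in the Panc89 clones. *IL1B* was lower in the Holoclone than in the Paraclone (-1.86 ± 0.44, adjusted p = 0.00351), and without Paraclone replicate 2 it was -2.59 with an adjusted p of 3.11e-06. The *IL1B* call was lost when only the compared groups were fitted (adjusted p = 0.0953). *IL1A* was higher in the Holoclone (0.87 ± 0.26, adjusted p = 0.0152), but the call was lost without Paraclone replicate 2 (0.53 with an adjusted p of 0.0652), without Holoclone replicate 2 or 3, after median-of-ratios scaling (0.73 with an adjusted p of 0.0678) and with only the compared groups (adjusted p = 0.165). Against parental Panc89, *IL1A* was higher in the Holoclone (1.35 ± 0.26, adjusted p = 0.00111) and *IL1B* was higher in the Paraclone (2.42 ± 0.44, adjusted p = 0.000959), where the call was again lost with only the compared groups (adjusted p = 0.0599). *IL1RN* changed both ways, lower in the Holoclone (-1.39 ± 0.13, adjusted p = 1.77e-06) and higher in the Paraclone (0.86 ± 0.13, adjusted p = 0.00025) than in parental Panc89. The clones differed in *IL1RN* by -2.26 ± 0.13, adjusted p = 4.81e-09.

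These levels gave each population its own balance within the IL-1 system. The *IL1A* to *IL1B* ratio of TPM values was 3.73, 2.79 and 3.83 in parental Panc89. It was 5.03, 7.26 and 5.6 in the Holoclone and 0.537, 1.5 and 0.834 in the Paraclone, so that the 3 groups did not overlap and *IL1B* exceeded *IL1A* in 2 of the 3 Paraclone libraries. *IL1RN* amounted to 9.19%, 6.26% and 8.93% of the *IL1A* and *IL1B* sum in parental Panc89. In the Holoclone this share was 1.60%, 0.986% and 1.03%, below every other Panc89 library. In the Paraclone it was 3.45%, 11.5% and 6.38%, overlapping the parental values, with the highest share in replicate 2. The ratios compare transcripts, and protein or its release was not measured.

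**Figure D4:**
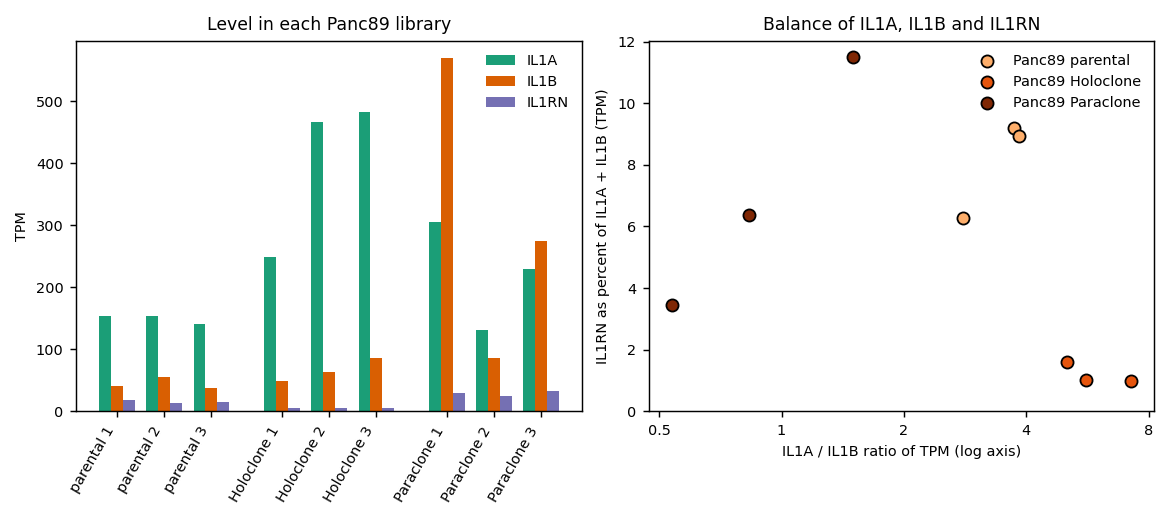
Left, bars of *IL1A*, *IL1B* and *IL1RN* in TPM (vertical axis) for each of the 9 Panc89 libraries (horizontal axis). Right, *IL1RN* as a percentage of the *IL1A* and *IL1B* sum (vertical axis) against the *IL1A* to *IL1B* ratio (horizontal log axis), with a point for each library, where the Holoclone lies at 5.03 or above and at most 1.60%.

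*IL11* was 1.87, 4.97 and 8.59 TPM in the Panc89 Holoclone and 40, 16.5 and 27.8 TPM in the Panc89 Paraclone. All Paraclone values exceeded all values of the other 5 groups. The clones differed by -2.32 ± 0.37, adjusted p = 0.000165, and the Paraclone exceeded parental Panc89 by 1.62 ± 0.37, adjusted p = 0.00566. *IL32* was 9.70, 10.9 and 14.8 TPM in the Holoclone and 39.8, 20.2 and 37.4 TPM in the Paraclone, a difference of -1.35 ± 0.37, adjusted p = 0.0104. The Holoclone held the lowest *IL32* group mean of the study and lay below parental Panc89 by -2.20 ± 0.37, adjusted p = 0.000438.

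*IL18*, *LIF* and *IL6R* were not called between the Panc89 clones. *IL18* was 92.5, 89.1 and 60.9 TPM in the Holoclone and 126, 113 and 128 TPM in the Paraclone. These values did not overlap, but the difference was -0.61, 95% confidence interval -1.16 to -0.07, adjusted p = 0.073, and it was called only after median-of-ratios scaling (-0.75 with an adjusted p of 0.0433). *LIF* was 50.1, 50.9 and 50.2 TPM in the Holoclone and 73.9, 29.0 and 53.2 TPM in the Paraclone, where replicate 2 was lowest (difference 0.05, 95% confidence interval -0.46 to 0.57, adjusted p = 0.902). *IL6R* was 9.15, 7.04 and 9.10 TPM and 9.30, 2.49 and 6.49 TPM (difference 0.54, 95% confidence interval -0.05 to 1.13, adjusted p = 0.147), and it exceeded parental Panc89 in the Holoclone (1.09 ± 0.28, adjusted p = 0.00885). Without Paraclone replicate 2 the *IL6R* clone difference was 0.094 (adjusted p = 0.718), and without Paraclone replicate 1 it was 0.88 with an adjusted p of 0.0156. The lone low *IL6R* value of 2.49 TPM in the Paraclone was again that of replicate 2.

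Against parental Panc89, 2 of the 10 genes were called higher in the Holoclone (*IL1A* and *IL6R*) and 4 lower (*IL1RN*, *IL6*, *IL32* and *IL33*). Of all genes 24.7% were called there, 16.1% higher and 8.61% lower, and the share of higher genes among the calls moved from 65.2% to 51.1% after median-of-ratios scaling. In the Paraclone 4 were called higher (*IL1B*, *IL1RN*, *IL11* and *IL18*) and none lower, where 19.4% of all genes were called, 9.37% higher and 10% lower. Without Panc89 Paraclone replicate 2 this count became 7 higher and 1 lower, as *IL1A*, *IL6R* and *LIF* were added as higher and *IL6* as lower. *IL18* had the highest adjusted p of the 4 (0.77 ± 0.25, adjusted p = 0.0454), and its call was lost under 3 of the 5 other settings. It was also lost in 4 of the fits that left out 1 library of the compared groups, which held 3 libraries each. The Holoclone and Paraclone comparisons share their parental libraries.

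Whether the clone difference itself differed between the lines was tested as an interaction (Holoclone minus Paraclone in Panc89, less the same difference in Panc1). It was called for 7 of the 10 genes, 2 positive and 5 negative, where 35.1% of all genes were called, 14.8% positive and 20.4% negative. *IL11* gave the largest value, -4.25 ± 0.53, adjusted p = 1.64e-05, as it was higher in the Holoclone in Panc1 and lower in Panc89, with both differences called. *LIF* (1.90 ± 0.34, adjusted p = 0.000495) and *IL18* (1.52 ± 0.36, adjusted p = 0.00382) gave positive values, since they fell in the Panc1 Holoclone and were not called in Panc89. *IL6* (-3.98 ± 0.79, adjusted p = 0.00111), *IL33* (-2.26 ± 0.35, adjusted p = 0.000121), *IL1RN* (-2.26 ± 0.19, adjusted p = 2.57e-07) and *IL1B* (-1.78 ± 0.62, adjusted p = 0.0356) gave negative values. All 4 were under 1 TPM in every Panc1 clone library, so these values rest on the Panc89 difference. The *IL1B* interaction was lost under 4 of the 5 other settings that kept all libraries. It was also lost in 10 of the fits that left out 1 library of the clone groups, which held 3 libraries each. It was -1.15 with an adjusted p of 0.0716 without Panc89 Paraclone replicate 1 and -2.50 with an adjusted p of 7.37e-05 without Panc89 Paraclone replicate 2. *IL1A*, *IL6R* and *IL32* were not called (0.87, 0.84 and -1.23 with adjusted p of 0.0759, 0.108 and 0.0838), though *IL32* was called without Panc89 Paraclone replicate 2 (-1.53 with an adjusted p of 0.0327), *IL6R* without Panc89 Paraclone replicate 1 (1.18 with an adjusted p of 0.0144) and *IL1A* without that library or Panc89 Holoclone replicate 1 (1.14 with an adjusted p of 0.0177 and 1.18 with an adjusted p of 0.00822).

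Set side by side across lines, the Holoclones and the Paraclones also differed. Between the Holoclones 7 genes were called higher in Panc89 and 2 lower (*IL11* at -1.21 ± 0.37, adjusted p = 0.00927, and *IL32* at -1.80 ± 0.37, adjusted p = 0.000516), where 65.8% of all genes were called, 29.3% higher and 36.4% lower. *IL18* was among the higher genes (2.71 ± 0.25, adjusted p = 1.37e-07), and *IL6* was under 1 TPM in both Holoclones. The *IL11* call was lost with the replicate block (-1.20 with an adjusted p of 0.0793) and without Panc89 Holoclone replicate 1 (-0.75 with an adjusted p of 0.0575), and the *IL33* call with the block (0.48 with an adjusted p of 0.204). *LIF* had the highest adjusted p of those called (0.62 ± 0.24, adjusted p = 0.0333), and its call was lost under 2 of the 5 other settings and without any 1 of 5 of the 6 Holoclone libraries. Between the Paraclones 7 were called higher in Panc89 and 1 lower (*LIF* at -1.28 ± 0.24, adjusted p = 0.000271), where 60.7% of all genes were called, 30.2% higher and 30.4% lower. There *IL11* was among the higher genes (3.03 ± 0.37, adjusted p = 3.27e-06), where the value between the Holoclones was negative. Without Panc89 Paraclone replicate 2 the Paraclone counts were 8 higher and 1 lower. In both comparisons the higher genes include *IL1A*, *IL1B*, *IL1RN* and *IL33*, and between the Paraclones also *IL6*. These genes passed the filter only through Panc89 and could be called only as higher there. The summed level of the 10 genes was 99.9 to 111 TPM in the Panc1 Holoclone, 222 to 233 TPM in the Panc1 Paraclone, 468 to 720 TPM in the Panc89 Holoclone and 498 to 1200 TPM in the Panc89 Paraclone.

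The receptors of the IL-1 family were examined with their adaptors, 16 genes of which 14 passed the filter. Here and for the lists that follow, counts stand against all genes tested, of which 27.5% were called higher and 38.5% lower in parental Panc89 (median -0.18), 27.4% and 9.97% in the Panc1 Holoclone against the Paraclone (median 0.19) and 22.4% and 13.3% in the Panc89 Holoclone against the Paraclone (median 0.09). Between the parental lines 4 higher and 7 lower were called in Panc89 (median -0.80). *IL1R1*, the signalling IL-1 receptor, was 4.95, 4.79 and 4.65 TPM in parental Panc1 and 0.773, 0.553 and 0.667 TPM in parental Panc89 (-1.80 ± 0.11, adjusted p = 7.94e-10). In the Panc89 clones it stayed at 0.11 to 0.252 TPM. The line with high *IL1A* and *IL1B* levels thus had the lower *IL1R1* level, and Panc1, with those ligands near 0, the higher one. *IL1RAP*, the co-receptor of IL-1 and IL-33, was higher in parental Panc89 (23.0, 17.9 and 19.7 TPM) than in parental Panc1 (12.9, 6.10 and 10.6 TPM), by 1.01 ± 0.21, adjusted p = 0.000579. The inhibitory receptor *SIGIRR* (-2.0) and the kinase *IRAK2* (-2.23) were lower in Panc89, with adjusted p of 9.4e-08 and 2.59e-08. *MYD88*, the adaptor, was higher (0.70, adjusted p = 0.00292).

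Between the Panc1 clones, 3 higher and 5 lower in the Holoclone were called among these genes (median -0.32), and 2 higher and 7 lower after median-of-ratios scaling. The IL-33 receptor *IL1RL1* was 0.16, 0.597 and 0.143 TPM in the Panc1 Holoclone and 8.97, 8.00 and 7.13 TPM in the Panc1 Paraclone (-2.81 ± 0.68, adjusted p = 0.0041). *IL1RAP* was likewise lower in the Holoclone (-1.82 ± 0.21, adjusted p = 8.01e-06), as was *IL1R1* (-1.10 ± 0.11, adjusted p = 1.48e-06). The IL-18 receptor gene *IL18R1* fell too (-1.59 ± 0.13, adjusted p = 2.33e-07), from 2.08, 2.25 and 2.03 TPM in the Paraclone to 0.022 to 0.0668 TPM in the Holoclone, and *IL18BP*, which captures IL-18, was higher in the Holoclone (0.81 ± 0.22, adjusted p = 0.00807). Between the Panc89 clones 3 higher and 1 lower were called (median 0.02), among them *IL18R1* as higher (0.71 ± 0.13, adjusted p = 0.000633) and *MYD88* as lower (-0.57 ± 0.18, adjusted p = 0.0221). *IL1RL1* was 0.549, 3.11 and 7.89 TPM in the Panc89 Holoclone and 23.5, 1.42 and 10.2 TPM in the Panc89 Paraclone, and the difference was not called (-1.19, 95% confidence interval -2.63 to 0.26, adjusted p = 0.196). Without Paraclone replicate 2, its lowest library, it was -2.11 with an adjusted p of 0.00758, which is called.

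Proteases and inflammasome genes, which cut and release IL-1 family cytokines, were taken as a list of 18 genes, 16 of them tested. In parental Panc89 8 higher and 3 lower were called against parental Panc1 (median 1.05). *CASP1*, the protease of IL-1β and IL-18, was 2.05, 0.985 and 1.68 TPM in parental Panc1 and 40.7, 25.5 and 41.0 TPM in parental Panc89 (3.83 ± 0.26, adjusted p = 2.62e-09). *CARD16*, a caspase-1 regulator that resembles part of *CASP1* in sequence, rose by 4.10 ± 0.20, adjusted p = 6.58e-11, and reads shared by the near-identical part could be split between the pair. *CASP4* also rose (3.03 ± 0.29, adjusted p = 1.51e-07), and *CAPN2*, a calpain subunit, fell (-1.21 ± 0.22, adjusted p = 0.00014).

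Between the Panc89 clones 10 higher and 1 lower of these 16 genes were called in the Holoclone (median 0.54, against 22.4% higher and 13.3% lower of all genes), the same counts after median-of-ratios scaling and 10 and 2 without Panc89 Paraclone replicate 2. *CASP1* was 70.9, 67.0 and 80.6 TPM in the Holoclone and 12.7, 29.0 and 24.4 TPM in the Paraclone (1.75 ± 0.26, adjusted p = 7.43e-05). The inflammasome adaptor *PYCARD* was higher in the Holoclone (1.48 ± 0.36, adjusted p = 0.0044), as was the pore-forming gasdermin gene *GSDME* (1.81 ± 0.17, adjusted p = 1.1e-06). *CASP5* was called higher too (2.23 ± 0.56, adjusted p = 0.00571) with a wide spread, at 1.01, 5.98 and 22.0 TPM in the Holoclone and 0.773, 0.193 and 0.478 TPM in the Paraclone. *CAPN2* was lower (-0.84 ± 0.22, adjusted p = 0.00663). *CASP1* and *IL1B* were therefore highest in different Panc89 clones. Between the Panc1 clones 2 higher and 2 lower were called (median -0.13), with *CAPN2* lower in the Holoclone (-1.45 ± 0.22, adjusted p = 8.74e-05), and 2 higher and 5 lower after median-of-ratios scaling.

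**Figure D5:**
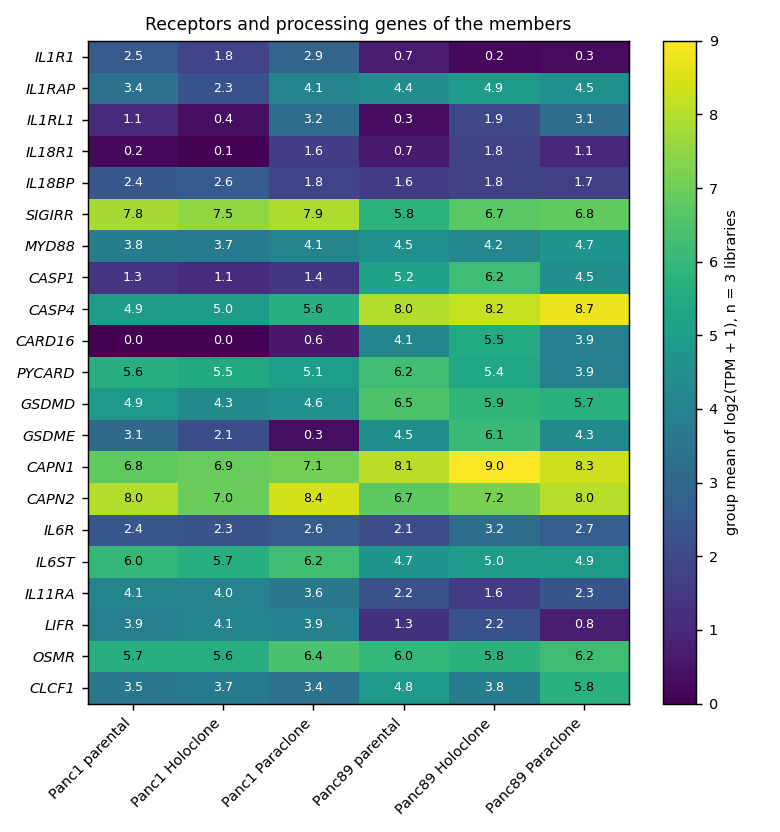
Group means of log2(TPM + 1) (color and printed value, 3 libraries each) for receptors, adaptors and processing genes (rows) in the 6 populations (columns). *IL1R1* is at 0.7 or less in all Panc89 groups, and *CASP1* is at 1.4 or less in all Panc1 groups.

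On the receptor side of the IL-6 family, 14 receptor and JAK-STAT genes were tested, of which 3 higher and 8 lower were called in parental Panc89 (median -0.95). *IL6ST*, the shared gp130 chain, was 54.7, 68.8 and 66.7 TPM in parental Panc1 and 33.6, 15.8 and 31.3 TPM in parental Panc89 (-1.27 ± 0.24, adjusted p = 0.000218). *LIFR*, the LIF receptor chain, was 12.5, 14.8 and 13.2 TPM and 1.43, 0.756 and 2.76 TPM (-2.52 ± 0.27, adjusted p = 6.85e-07). *IL11RA*, the IL-11 receptor chain, was 19.6, 17.4 and 11.5 TPM and 5.62, 2.62 and 3.37 TPM (-1.83 ± 0.26, adjusted p = 1.26e-05). The receptor chains of LIF and IL-11 were thus lower in the Panc89 parental cells although the *LIF* and *IL11* differences were not called. *STAT3* was lower (-0.81, adjusted p = 7.25e-05).

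Between clones 3 higher and 2 lower in Panc1 and 2 higher and 1 lower in Panc89 for the Holoclone were called (medians 0.11 and -0.02), where 37.3% and 35.7% of all genes were called. After median-of-ratios scaling the counts were 1 and 4 in Panc1 and 2 and 3 in Panc89. *LIFR* was higher in the Panc89 Holoclone (5.77, 3.07 and 2.89 TPM) than in the Panc89 Paraclone (0.716, 1.02 and 0.42 TPM), by 1.48 ± 0.27, adjusted p = 0.000538. *IL11RA* was lower there (-0.71 ± 0.26, adjusted p = 0.0413). *OSMR*, the receptor chain of oncostatin M, was lower in the Panc1 Holoclone (-0.82 ± 0.17, adjusted p = 0.00124). Without Panc89 Paraclone replicate 2 it was also called lower in the Panc89 Holoclone (-0.62 with an adjusted p of 0.00257). The same was found after median-of-ratios scaling (-0.53 with an adjusted p of 0.0456). *IL31RA*, of the IL-31 receptor, was lower in the Holoclone in Panc1 (-1.47 ± 0.17, adjusted p = 9.06e-06) and higher in Panc89 (0.86 ± 0.17, adjusted p = 0.00113).

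Of the 8 other ligand genes of the IL-6 family, 5 were tested, and *CLCF1*, a gp130 ligand, differed between the Panc89 clones in the direction of *IL11*. It was 11.7, 11.3 and 17.6 TPM in the Panc89 Holoclone and 55.7, 55.0 and 49.2 TPM in the Panc89 Paraclone (-1.93 ± 0.17, adjusted p = 5.43e-07), and was not called between the Panc1 clones (0.34, adjusted p = 0.14). In parental Panc89 2 higher and 0 lower were called (median -0.01), between the Panc1 clones 1 higher and 0 lower in the Holoclone (median 0.34) and between the Panc89 clones 1 higher and 1 lower (median 0.15).

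Genes known as STAT3 targets and NF-κB targets were described in the same way. Of 17 STAT3 targets 12 were tested, with 7 higher and 1 lower in parental Panc89 (median 1.79), 1 higher and 6 lower in the Panc1 Holoclone (median -0.55) and 3 higher and 1 lower in the Panc89 Holoclone (median 0.56). *LCN2*, an iron-binding acute phase protein, was 2.50, 0.225 and 1.89 TPM in parental Panc1 and 1750, 360 and 1050 TPM in parental Panc89 (8.56 ± 0.70, adjusted p = 2.98e-08). *CEBPD*, an acute phase transcription factor, rose as well (4.39 ± 0.28, adjusted p = 1.34e-09). *SERPINA3*, a protease inhibitor, was higher in the Panc1 Paraclone (42.0, 95.5 and 142 TPM) than in the Panc1 Holoclone (7.22, 4.33 and 3.60 TPM, -3.84 ± 0.39, adjusted p = 1.78e-06), the same direction as *LIF*. *SOCS3*, the feedback inhibitor induced by STAT3 and also chosen after its values were seen, was not called in these 3 comparisons (group means 40.5 to 56.0 TPM), but it was called lower in the Panc89 Holoclone without Paraclone replicate 2 (-0.67 with an adjusted p of 0.0222). *TIMP1*, a metalloproteinase inhibitor, was lower in the Panc89 Holoclone (-2.60 ± 0.27, adjusted p = 2.08e-06).

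Of 20 NF-κB targets 18 were tested, with 8 higher and 4 lower in parental Panc89 (median 0.37), 1 higher and 6 lower in the Panc1 Holoclone (median -0.29) and 1 higher and 6 lower in the Panc89 Holoclone (median -0.32). *ICAM1*, a leukocyte adhesion molecule, was lower in parental Panc89 (-2.17 ± 0.26, adjusted p = 2.62e-06) and in the Panc1 Holoclone (-1.70 ± 0.26, adjusted p = 0.00012). *NFKBIZ*, which encodes a co-regulator of secondary response genes, was lower in the Panc1 Holoclone (-2.65 ± 0.30, adjusted p = 5.12e-06). In the Panc89 Holoclone *CSF3*, the gene of G-CSF (-2.52 ± 0.25, adjusted p = 1.55e-06), and *RELB*, an NF-κB subunit (-1.98 ± 0.36, adjusted p = 0.000538), were lower. *PTGS2*, the inducible cyclooxygenase, moved against them. It was 18.9, 10.5 and 21.3 TPM in parental Panc89, 41.6, 116 and 80.5 TPM in the Holoclone and 4.10, 6.90 and 5.72 TPM in the Paraclone (clone difference 3.52 ± 0.30, adjusted p = 2.75e-07), so that the Holoclone was highest. The *IL1A* group mean was also highest in the Holoclone, but there the libraries of the clones overlapped.

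Other interleukins were mostly silent. Of 27 interleukin genes outside the 10, 9 passed the filter, with 5 higher and 1 lower in parental Panc89, 0 higher and 1 lower in the Panc1 Holoclone and 3 higher and 1 lower in the Panc89 Holoclone (medians 0.98, -0.01 and 0.03). *IL23A*, a subunit of IL-23, was higher in parental Panc89 (2.73 ± 0.64, adjusted p = 0.00141), at 14.7, 3.91 and 9.56 TPM. Without Panc89 Paraclone replicate 2, *IL23A* (-1.86 with an adjusted p of 0.00831) and *IL24* (-1.92 with an adjusted p of 0.00214) were called lower in the Panc89 Holoclone than in the Paraclone. In that fit *IL12A* and *IL20* were called higher, and *IL15* was not called (-0.38 with an adjusted p of 0.173). Of 27 other interleukin receptors 16 passed, with 8 higher and 4 lower, 2 higher and 3 lower and 0 higher and 1 lower in the same comparisons (medians 0.60, -0.23 and -0.10). *IL7R* (4.49 ± 0.45, adjusted p = 3.08e-07), of the IL-7 receptor, was higher in parental Panc89. *IL20RA*, a receptor chain for IL-20 type cytokines, was called as well (adjusted p = 3.42e-12), at 27.2, 16.5 and 27.1 TPM in parental Panc89 and listed at 0 in the 3 parental Panc1 libraries. *IL13RA1*, of the IL-4 and IL-13 receptor, was lower in parental Panc89 (-2.69 ± 0.13, adjusted p = 4.87e-11) and in the Panc1 Holoclone (-1.06 ± 0.13, adjusted p = 1.27e-05). Without Panc89 Paraclone replicate 2, *IL20RA*, *IL13RA2* and *IL13RA1* were called lower in the Panc89 Holoclone than in the Paraclone, with *IL13RA1* at -0.41 and an adjusted p of 0.0298.

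The genes whose log2(TPM + 1) pattern over the 18 libraries was most like that of a member are given as a description, since the libraries fall into 2 lines and share their scaling. For *IL1A* these were *LINC01980*, *FUT3* and *BCRP9* (Pearson's r = 0.998, 0.998 and 0.997), but 8.45% of the tested genes exceeded 0.9. For *IL1B*, *TM4SF19* and *TGFA* were among them (0.995 and 0.994), and for *IL1RN* *GNGT1*, *MAGEA9B* and *SCAT1* (0.993, 0.993 and 0.992). *IL33* was most like *INSL4*, *PDE3A* and *CYP24A1* (0.994, 0.990 and 0.986), and *IL6* most like *ROS1*, *PDE8B* and *DIO2* (0.975, 0.961 and 0.961). The genes that did not follow the line had weaker partners. *LIF* was most like *GRIK2*, *TOX* and *ELL2* (0.901, 0.886 and 0.877), *IL18* most like *S100A16*, *ZNF544* and *S100A13* (0.923, 0.911 and 0.894) and *IL11* most like *MFF*, *PFKFB2* and *USP43* (0.883, 0.882 and 0.881). *IL6R* reached 0.815 with *PJA1*, then *DUSP7* (0.802) and *PDGFA* (0.798). *IL32* reached 0.782 with *RPS21*, then *SUSD2* and *SNAI1* (both 0.779).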

How the data were processed

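Poly(A) RNA from 3 passages of each population was made into libraries with a stranded mRNA kit and sequenced as paired-end reads. The authors quantified transcripts with kallisto 0.46.1 (submitters' processing notes) on the Ensembl GRCh38 transcriptome and summed scaled TPM values per gene with tximport. Whether strand was used in counting is not given in the sources used here. The deposited values are log2(TPM + 1), so depth is unknown and the authors' count-based test could not be repeated. They were tested instead with limma 3.58.1 in R 4.3.3 (trend, 6 group means, all 18 libraries, two-sided, Benjamini-Hochberg adjustment) for genes that reached 1 TPM in 3 or more libraries. TPM was recovered by removing the pseudocount of 1. The test was tried on simulated data.

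Alternatives were a pseudocount of 0.1, no filter, only the groups compared, a replicate block, median-of-ratios scaling and each library left out. For the other gene lists, the scaling and the run without Panc89 Paraclone replicate 2 were added after the data were seen. All 10 genes are named. From each other list the text names up to 2 genes per direction and comparison, those with the largest called differences whose higher group averaged 5 TPM or more, and also receptors, adaptors and processing enzymes of the 10, and for each of the 10 the 3 most alike genes. The genes and lists were chosen with earlier results of these data known. A few genes that this rule names are not reported here.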

Additional observations from a re-analysis of the deposited data

Results flagged for a closer look

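In 7 genes the difference between Holoclone and Paraclone cells in Panc89 differed from that in Panc1, by the interaction term of limma's fit with adjusted p under 0.05. In units of log2(TPM + 1), the Panc89 difference less the Panc1 difference was -4.25 for *IL11*, which was higher in the Panc1 Holoclone and lower in the Panc89 Holoclone in 3 of 3 libraries each. It was 1.90 for *LIF* and 1.52 for *IL18*, both called lower in the Holoclone in Panc1 and not called in Panc89. The value was -3.98 for *IL6*, -2.26 for *IL33*, -2.26 for *IL1RN* and -1.78 for *IL1B*. The *IL1B* call was lost under 4 of the 5 other settings, with adjusted p from 0.0619 to 0.172. It was also lost in 10 of the fits that left out 1 library of the clone groups, which held 3 libraries each. *IL1RN* was listed at 0, and the other 3 were under 1 TPM, in all Panc1 clone libraries.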

How the results depend on the processing

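The differences of the 10 genes were recomputed over the 5 alternative settings and with each library of the compared groups left out in turn. Of these recomputed differences, 909 kept their direction and their side of the threshold, 44 kept the direction and lost the call, 16 gained it and 15 changed sign. Genes under 1 TPM in every library compared were left out of this count. With only the compared groups in the fit, 3391 genes instead of 5746 were called between the Panc89 clones, and 2 instead of 4 of the 10 genes between the Panc89 Paraclone and parental Panc89. Leaving out single libraries gave 3 to 8 of the 10 genes for the latter comparison, with 8 without Panc89 Paraclone replicate 2, and 1061 to 1571 genes for the Panc1 Holoclone against parental Panc1, with 1061 without Panc1 Holoclone replicate 3. These fits have fewer samples.

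Sign changes concerned differences that were not called in the reported fit. With a pseudocount of 0.1 the *IL6* difference between the Panc89 Paraclone and parental Panc89 became -0.019. With median-of-ratios scaling the *IL18* difference between the parental lines became 0.15 and the *LIF* difference between the Panc89 clones -0.079. When single libraries were left out, the *IL18* difference between the parental lines ranged from -0.35 to 0.11 and that between the Panc89 Holoclone and parental Panc89 from -0.011 to 0.42. *IL11* in the Panc1 Holoclone against parental Panc1 ranged from -0.021 to 0.28, *IL32* between the Panc1 clones from -0.31 to 0.11, and *IL6R* between the Paraclones from -0.27 to 0.51. *LIF* between the Panc89 clones ranged from -0.31 to 0.35 and *IL6* in the Panc89 Paraclone against parental Panc89 from -0.96 to 0.75. The causes were not tested.

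Same-numbered replicates did not deviate together (r from -0.32 to 0.19 over 18 pairs, 3 of them over 0.1), so the number was not taken as a pairing. With the replicate block the calls among the 10 genes were 5 between the parental lines, where *IL32* was lost, 3 between the Panc1 clones, 7 between the Panc89 clones and 7 for the interaction, where *IL32* was gained and *IL1B* lost. The block gave 6 calls between the Holoclones, where *IL11*, *IL33* and *LIF* were lost, and 3 in the Panc89 Paraclone against parental Panc89, where *IL18* was lost. Among all genes it called 8939, 5553, 5211 and 5095 in the first 4 of these comparisons. TPM values carry no depth, so the counting error of low values is unknown.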
